A study of Oryza sativa with 8 samples.

Results

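The abundant leaf transcripts of the rice glk1glk2 double mutant were compared between 1 library from plants at low phosphate and 1 library from control plants. A transcript entered the set when its level reached 100 FPKM (fragments per kilobase of transcript, scaled to library size) in at least one of the 2 libraries, which selected 1392 of the 40718 genes in the table. The set held 1373 protein-coding genes, 5 ribosomal RNA genes, 3 small nucleolar RNA genes and 11 entries without a class, and 1389 of the 1392 lay on nuclear chromosomes. It took up 46.5% of the reads in the control library and 45.1% in the low-phosphate library. The threshold sets aside the less abundant genes because both libraries were made of few distinct cDNA fragments, about 77338 in the control and 85793 at low phosphate, each read many times.

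The series profiled leaves of 3 rice genotypes, the glk1glk2 double mutant, the wild type DJ and the mutant dgp1, each under control conditions (CK) and at low phosphate (LP). Seedlings grew for about 2 weeks in tubes on 0.5× Murashige and Skoog solid medium. The low-phosphate plants were then moved to medium with 10 µM KH2PO4, and their leaves were taken 6 days later, while the labels give no harvest time for the controls. Each of these 6 groups had 1 library, the mutant alleles and the number of plants pooled were not stated, and another wild type, ZH11, was not used for values.

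GLK1 and GLK2 encode GOLDEN2-LIKE transcription factors, which act as a redundant pair in the mesophyll and switch on nuclear genes for chlorophyll synthesis, light-harvesting proteins and photosystem subunits. Plants without both factors form pale leaves with poorly stacked thylakoids. Phosphate shortage slows photosynthesis and makes plants recover phosphate from lipids and RNA, release phosphatases and raise the capacity for phosphate uptake.

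The library labels were first checked on the targeted genes, neither of which reached the threshold. OsGLK1 stood at 40.9 FPKM in the control and 49.3 FPKM at low phosphate in glk1glk2, against 89.2 to 273 FPKM in the 4 DJ and dgp1 libraries. GLK2 stood at 32.2 and 53.0 FPKM in glk1glk2, against 83.4 to 106 FPKM. Both transcripts were lower in each glk1glk2 library than in each of the 4 others but were still detected, and the part of the gene that the mutations alter was not given. The leaf label was checked on mesophyll markers (Rubisco small subunit, Rubisco activase and light-harvesting genes), all 6 of which were found. Their summed level was 6997 FPKM in the control and 5898 FPKM at low phosphate in glk1glk2, against 15768 to 57349 FPKM in the 4 others. Of 6 markers of root and stem base, 4 were matched, RCc3 and LSI2 were at 0 in both glk1glk2 libraries, and the sum was 50.4 and 25.9 FPKM. Among markers of dividing cells, OSH1 and OsCycB1 were at 0 in both, whereas OsPCNA stood at 150.3 and 164 FPKM, against 9.52 to 27.5 FPKM in the 4 others. In such bulk leaf samples, fewer cells of a type and less RNA per cell cannot be told apart.

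Most abundant transcripts of glk1glk2 leaves stood at about the same level in the low-phosphate library as in the control. Within 1.5-fold of each other, here called held, were 933 of the 1392 (67.0%), and in 612 (44.0%) the higher level exceeded the lower one by less than 25%. At least 2-fold higher at low phosphate were 80 (5.75%) and at least 2-fold lower were 97 (6.97%), while 282 (20.3%) lay between 1.5-fold and 2-fold. Among the 916 members that reached 100 FPKM in both libraries, 9 (0.983%) were 2-fold higher, 9 (0.983%) 2-fold lower and 780 (85.2%) held. Most 2-fold calls were thus of members that passed in their higher library alone, while passing in both itself favours similar levels. Over the 15007 genes with at least 5 FPKM in one of the 2 libraries, 23.3% were at least 2-fold higher, 23.1% at least 2-fold lower and 36% within 1.5-fold. The median ratio of low phosphate over control was −0.09 on the log2(FPKM + 1) scale, with an interquartile range from −0.45 to 0.29. With 1 library a side there is no replicate check and no p-value for any of these differences.

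**Figure D1:**
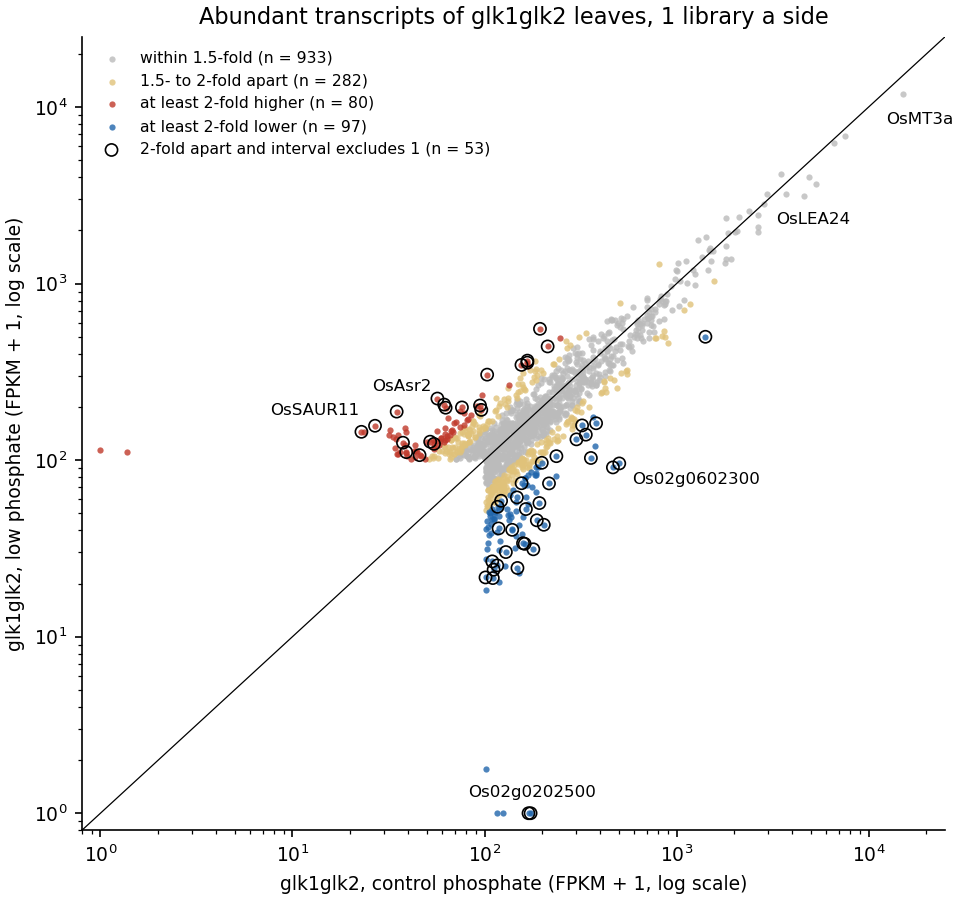
Levels of the 1392 abundant transcripts in the control (x axis) and low-phosphate (y axis) glk1glk2 libraries, in FPKM + 1 on log axes, coloured by fold class, with the line of equal levels. Circles mark the 53 transcripts at least 2-fold apart whose 95% counting interval excludes 1; the cloud narrows towards high levels, and the only transcript of 1000 FPKM or more that was 2-fold apart is the blue point right of the line.

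How tightly a transcript held its level followed how many fragments it was made of. In the class with 100 to 200 FPKM in its higher library, 17.6% of 848 transcripts were at least 2-fold apart. That share was 6.20% of 403 transcripts at 200 to 500 FPKM, 2.17% of 92 at 500 to 1000 FPKM and 2.04% of 49 at 1000 FPKM or more. By the estimated number of fragments, 65.5% of the 55 transcripts with fewer than 5 fragments were 2-fold apart, against 2.36% of the 127 with 50 or more. A single fragment of a transcript 1 kb long was worth 10.3 FPKM in the control and 9.04 FPKM at low phosphate, and the median member rested on 15.4 and 17.0 fragments. The robust SD of the log2 ratio was 0.55 over all members, where counting of fragments alone gives 0.52. Below 5 fragments it was 2.07 and at 5 to 10 fragments 1.00, where counting alone gives 1.27 and 0.77. At 10 to 20 fragments it was 0.54, where counting alone gives 0.55. At 20 to 50 fragments it was 0.41 and at 50 or more 0.28, where counting alone gives 0.39 and 0.23. These counting values depend on how many reads are taken as 1 fragment. With the smaller fragment used as the alternative below, counting alone gives less in every class. In the class of 1000 FPKM or more it was 0.36, where counting alone gives 0.17, so that among these the libraries differed by more than their fragment counts.

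**Figure D2:**
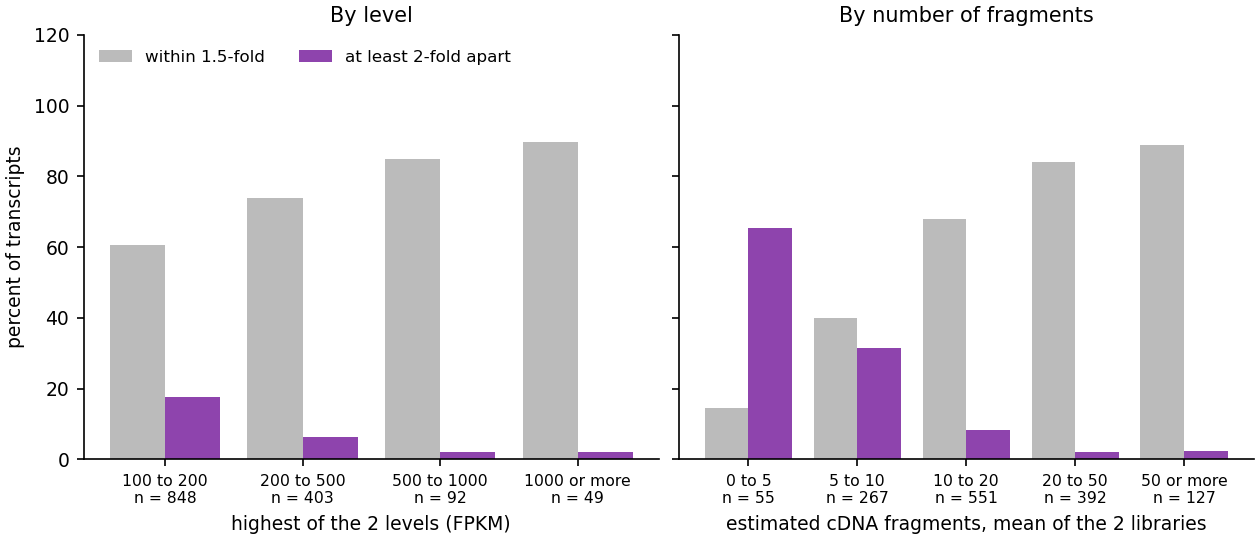
Percent of the abundant transcripts within 1.5-fold (grey) and at least 2-fold apart (purple) between the 2 glk1glk2 libraries, by the higher of the 2 levels in FPKM (left) and by the estimated number of cDNA fragments (right), with the number of transcripts in each class. The share 2-fold apart runs from 65.5% in the class with the fewest fragments to 2.36% in the class with the most.

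For this reason each ratio is given with its exact 95% interval from the estimated fragments, which covers counting error only. The interval included 1 for 1303 of the 1392 transcripts (93.6%). At least 2-fold higher with an interval that excluded 1 were 20 transcripts, and at least 2-fold lower 33, while over the 15007 genes of at least 5 FPKM the corresponding shares were 0.446% and 0.66%. Where the lower of the peaks in reads per gene was taken as 1 fragment, which doubles the fragments, these counts were 56 and 73. Of the 80 transcripts 2-fold higher, 60 had an interval that included 1, and so did 64 of the 97 that were 2-fold lower. Such intervals miss the true ratio in up to 5% of transcripts by their definition, and they excluded 1 for 89 of 1392 (6.39%), or for 285 (20.5%) with the lower peak. Among the genes whose intervals are described as including 1 below, those of OsASR5, OsPsbR3, OsPC, PSB28, EG2, ONAC041 and OsPIP1 (Os04g0559700) excluded 1 with the lower peak. The members had to reach 100 FPKM in 1 library only, and 267 did so in the control alone and 209 at low phosphate alone. Such a transcript was below 100 FPKM in the other library. This favours a difference but does not require one of 1.5-fold or 2-fold. Choosing instead the 1305 genes with a mean of at least 100 FPKM over the 4 DJ and dgp1 libraries, which the comparison does not use, gave 7.13% higher, 7.36% lower and 67.3% held.

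Just inside the threshold lay OsERF#120, with 48.1 FPKM in the control and 100.2 FPKM at low phosphate, Os04g0643100 with 100.1 and 79.1 FPKM, and OsPRA1 with 100.2 and 20.7 FPKM. Just outside lay LOG1 with 81.2 and 99.8 FPKM, Os02g0690200 with 99.8 and 88.6 FPKM, and Os11g0177200 with 99.7 and 65.1 FPKM.

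Each of the 10 most abundant transcripts was within 1.5-fold, and 3 of them were hypothetical genes without an assigned function. OsMT3a encodes a type 3 metallothionein, a small cysteine-rich protein that binds metal ions, and had 15079 FPKM in the control and 11784 FPKM at low phosphate, a ratio of 0.782 (95% interval 0.707 to 0.864). OsASR5, an abscisic acid, stress and ripening protein, had 7552 and 6883 FPKM, a ratio of 0.911 (0.815 to 1.02). DIP3, a chitinase-type glycosyl hydrolase of family 18, had 6616 and 6275 FPKM, a ratio of 0.948 (0.862 to 1.04). OsMT3a was therefore lower at low phosphate by more than counting error, and the intervals of OsASR5 and DIP3 included 1. Among the transcripts closest to equality, OsLEA24, a late embryogenesis abundant protein, had 2835 and 2838 FPKM, a ratio of 1.00 (0.810 to 1.24). The cyclophilin LRT2, a peptidyl-prolyl isomerase of auxin signalling, had 2376 and 2578 FPKM, and OsRcaII, the Rubisco activase, had 1489.7 and 1537 FPKM. In the homeodomain-leucine zipper gene HOX22 the levels were 400.2 and 400.9 FPKM.

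The 5 lists of photosynthesis genes (light harvesting, photosystems and electron transport, Rubisco and Calvin cycle, photorespiration, chlorophyll metabolism) held 64 members, of which 51 were held, 2 were at least 2-fold higher and 1 at least 2-fold lower. Of the 64, 51 had a ratio below 1, with a median of −0.21 log2 beside −0.09 over all 1392. Their summed level was 35770.2 FPKM in the control and 30104 FPKM at low phosphate. Scaled by the FPKM worth of 1 fragment in each library, the ratio of summed fragments was 0.840 (0.801 to 0.880). Over all members this scaled ratio was 0.941 (0.928 to 0.955). These intervals on sums are too narrow, because the spread among the most abundant transcripts exceeded their counting error. The mesophyll markers given above are themselves photosynthesis genes, so their lower sum is no separate measure of the share of mesophyll.

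All 10 light-harvesting chlorophyll a/b-binding members (of 26 genes in the table) were lower in the low-phosphate library, 9 of them within 1.5-fold, with a median of −0.33 log2. CAB1R, a protein of the photosystem II antenna, had 2662 FPKM in the control and 2084 FPKM at low phosphate, a ratio of 0.783 (0.665 to 0.921). The type III antenna gene Os02g0197600 of photosystem I had 1919.8 and 1383 FPKM, a ratio of 0.720 (0.589 to 0.880). The lowest of the list, the photosystem I antenna gene cab (Os08g0435900), had 863 and 536 FPKM, a ratio of 0.622 (0.448 to 0.858). Beside these 3, CAB2R at 215 and 213 FPKM showed no such difference, its ratio being 0.992 (0.555 to 1.78). Light-harvesting copies are close in sequence, and how the authors' counting divided shared reads among them was not given. With both libraries scaled by their read totals the median of the list was −0.29.

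Among the 29 photosystem and electron transport members, 22 were held, 2 were at least 2-fold higher and none was 2-fold lower, with a median of −0.20 log2. The largest difference downwards was in petC, the Rieske iron-sulphur protein of the cytochrome b6f complex, with 896 FPKM in the control and 463 FPKM at low phosphate, a ratio of 0.516 (0.363 to 0.727). Ferredoxin Fd1, which passes electrons on from photosystem I, had 866 and 496 FPKM, a ratio of 0.573 (0.387 to 0.841). PsaD, the subunit of photosystem I at which ferredoxin docks, had 1096 and 705 FPKM, a ratio of 0.644 (0.462 to 0.893). These 3 were the members of the list whose interval excluded 1, and none reached 2-fold. Plastocyanin OsPC, the electron carrier to photosystem I, had 859.6 and 627 FPKM, with an interval that included 1 (0.488 to 1.09). The photosystem I subunits varied among themselves, as PsaE had 448 and 433 FPKM and PSAH 523 and 629 FPKM, with log2 ratios of −0.05 and 0.27. Photosystem II subunits varied as well, PsbX at −0.82 log2 and PSBW at −0.06. OsPsbR3 had 3694 and 3218 FPKM, a ratio of 0.871 (0.729 to 1.04), and PSBS1, the sensor protein of non-photochemical quenching, had 767 and 713 FPKM, a ratio of 0.930 (0.676 to 1.28). PSB28, a factor of photosystem II assembly, was the highest of the list at 33.1 and 115 FPKM, on few fragments, and its interval reached from 0.779 to 27.1.

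Rubisco and Calvin cycle genes held their level in 10 of 13 cases, with a median of −0.16 log2. The small subunit gene RBCS (Os12g0274700) had 349.96 FPKM in the control and 338 FPKM at low phosphate, whereas its near copy RbcS3 had 778 and 490.0 FPKM, a ratio of 0.630 (0.431 to 0.916). The chloroplast aldolase Aldo had 1482 and 1543 FPKM. The 4 chlorophyll metabolism members were all held, and of 8 photorespiration members 6 were held. OsSHM2, a serine hydroxymethyltransferase, was the only photosynthesis-list member at least 2-fold lower, with 116 and 53.4 FPKM and a ratio of 0.460 (0.202 to 0.992). Plastid-encoded rpl32, a ribosomal protein, had 505 and 776 FPKM, and rpoA, a subunit of the plastid RNA polymerase, had 199.6 and 142 FPKM. Both intervals included 1.

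**Figure D3:**
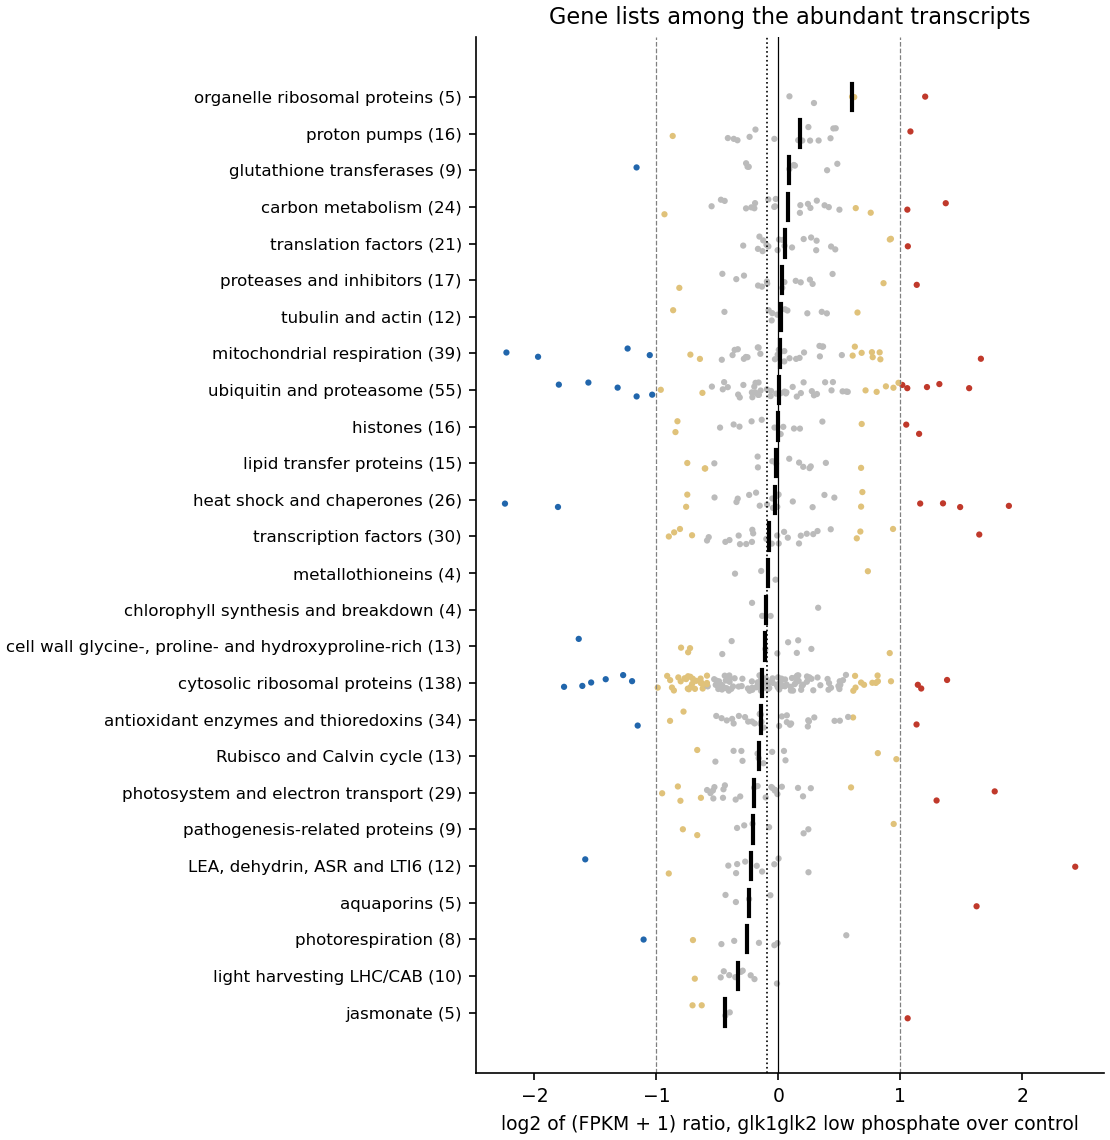
Log2(FPKM + 1) ratio of low phosphate over control in glk1glk2 for each abundant transcript of the 26 gene lists with 4 or more members, with the number of members in brackets. Each point is 1 transcript (grey within 1.5-fold, yellow between 1.5-fold and 2-fold, red and blue at least 2-fold higher or lower), black bars are list medians, dashed lines mark 2-fold and the dotted line is the median of all 1392; the 10 light-harvesting points all lie left of 0.

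Cytosolic ribosomal proteins made up the longest list, with 138 members, of which 93 were held, 3 were 2-fold higher and 6 were 2-fold lower. Their median was −0.14 log2, and the ratio of summed fragments, scaled in the same way, was 0.910 (0.859 to 0.965). Single subunits stood apart in both directions. OsRPS24 had 192 FPKM in the control and 56.1 FPKM at low phosphate, a ratio of 0.292 (0.0810 to 0.862), and the L35A gene Os02g0785800 had 336 and 138 FPKM, a ratio of 0.412 (0.182 to 0.878). OsRPL13a had 75.3 and 198 FPKM, a ratio of 2.63 (1.02 to 7.84). Translation factors held their level in 18 of 21 cases with a median of 0.05 log2. GOS2, a translation initiation factor of the SUI1 type, had 699.96 and 808 FPKM, and the elongation factor EF-1 alpha gene rfa3 had 171 and 323 FPKM, a ratio of 1.89 (1.18 to 3.08). The 5 organelle ribosomal proteins had a median of 0.60 log2, which became −0.27 over the 28 such genes of at least 50 FPKM.

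Protein turnover genes were balanced, as 38 of the 55 ubiquitin and proteasome members were held, 5 were 2-fold higher and 5 were 2-fold lower. The polyubiquitin genes Ubi1 and rubq2 had 612 and 545 FPKM and 619 and 593 FPKM in control and low phosphate. OsRpt1b, an ATPase of the proteasome cap, had 102 and 304 FPKM, a ratio of 2.97 (1.2499 to 8.11). Os01g0962400, which encodes the ubiquitin-like modifier Ufm1, went the other way with 357 and 102 FPKM, a ratio of 0.285 (0.0992 to 0.712). Of 26 chaperones 16 were held, 4 were 2-fold higher and 2 were 2-fold lower.

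Metallothioneins, 4 members with OsMT3a the most abundant, had a scaled ratio of summed fragments of 0.814 (0.745 to 0.890). OsMT2a had 1807 FPKM in the control and 1638 FPKM at low phosphate, OsMT2c had 1218 and 1198 FPKM, and MT1A had 64.3 and 108 FPKM. All 3 of these intervals included 1, so the lower sum rested on OsMT3a. Antioxidant enzymes and thioredoxins were held in 29 of 34 cases and glutathione transferases in 8 of 9. TRXH, a thioredoxin of the h type, had 1484 and 1585 FPKM. OsFER1, a plastid ferritin that stores iron, was not in these lists and had 198 and 95.5 FPKM, a ratio of 0.483 (0.234 to 0.960).

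Lipid transfer proteins, small secreted proteins that carry cuticle lipids, had 15 members with a median of −0.02 log2 and none 2-fold apart, but neighbouring genes differed in direction. On chromosome 12, OsLTP1.17 (733276 to 733623, plus strand, coordinates as in the deposited table, whose build was not given) had 5287 FPKM in the control and 3674 FPKM at low phosphate, a ratio of 0.695 (0.553 to 0.871). Its neighbour OsLTP1.18 (737314 to 738254, plus strand) had 3483 and 4156 FPKM, a ratio of 1.19 (1.02 to 1.40). On chromosome 11, LTP2-A had 1574 and 1038 FPKM, a ratio of 0.660 (0.501 to 0.866), and LTP1 had 1801 and 2358 FPKM, a ratio of 1.31 (1.05 to 1.64). In both clusters one gene was thus lower and the adjacent one higher by more than counting error. These genes have near copies, and the division of shared reads among them was not given.

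The list of phosphate starvation, transport and acid phosphatase genes barely reached the set, since 83 of its 190 genes had 5 FPKM or more and 2 were members. OsPT15, a mitochondrial phosphate carrier, had 92.0 FPKM in the control and 124 FPKM at low phosphate, a ratio of 1.35 (0.664 to 2.83). Os05g0432700, annotated as a phosphate starvation-induced protein, had 521 and 379 FPKM, a ratio of 0.727 (0.422 to 1.24). Neither interval excluded 1, and the threshold leaves most genes of this response out of the comparison.

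Among 30 transcription factors 22 were held, 1 was 2-fold higher and none was 2-fold lower. CCA1, a MYB factor of the circadian clock, had 211 FPKM in the control and 183 FPKM at low phosphate. OsBBX20, a B-box zinc finger protein that was not in this list, had 1171 and 762 FPKM, a ratio of 0.651 (0.437 to 0.963). ONAC041, a NAC-domain factor, had 37.8 and 120.3 FPKM, with an interval from 0.895 to 16.0. Of 16 histones 11 were held and 2 were 2-fold higher. The histone H3 gene Os03g0390600 had 155 and 345 FPKM, a ratio of 2.23 (1.13 to 4.68), and the H4 gene Os09g0553100 had 212 and 439 FPKM, a ratio of 2.07 (1.02 to 4.47). Another H4 gene, Os10g0539500, had 343 and 275 FPKM, and the H1 gene Os03g0799000 had 295 and 166 FPKM, so the histones differed in direction among themselves.

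In the remaining lists, apart from the jasmonate genes, more members were held than not. Mitochondrial respiration had 25 of 39 members held with 1 higher and 4 lower, proton pumps 14 of 16, carbon metabolism 19 of 24, tubulin and actin 10 of 12, and proteases with their inhibitors 14 of 17. Aquaporins, which are water channels, were held in 4 of 5 cases. OsPIP1a had 1089 FPKM in the control and 806 FPKM at low phosphate, a ratio of 0.740 (0.567 to 0.965), and OsPIP1 (Os04g0559700) had 35.1 and 110.4 FPKM, with an interval from 0.986 to 13.2. Pathogenesis-related proteins were held in 6 of 9 cases, cell wall proteins in 8 of 13, and LEA, dehydrin and ASR proteins in 9 of 12. Of 5 jasmonate genes 2 were held, and the repressor genes OsJAZ6 (219.5 and 166 FPKM) and EG2 (79.8 and 167 FPKM) differed in opposite directions with intervals that included 1. The 28 lists together covered 571 of the 1392 members, and 821 belonged to none.

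Of the 20 transcripts higher by at least 2-fold and by more than counting error, the 3 with the largest ratios rested on few control fragments. OsSAUR11 (chromosome 2, 25878905 to 25879875, plus strand), a small auxin-up RNA, had 21.9 FPKM in the control and 144 FPKM at low phosphate, a ratio of 6.57 (1.56 to 56.8), on 2.05 and 15.4 estimated fragments. Os12g0438900, a subunit of the microsomal signal peptidase, had 25.9 and 155.5 FPKM, a ratio of 6.00 (1.255 to 67.4). OsAsr2 (Os04g0423400, chromosome 4, 20934960 to 20936052, minus strand), carrying an ASR gene symbol, had 33.9 and 187 FPKM, a ratio of 5.53 (1.80 to 24.2), on 3.58 and 22.6 fragments. The other gene with the symbol OsAsr2, Os01g0963600, had 744 and 658 FPKM and was held. RMtATPd1, a subunit of mitochondrial ATP synthase, had 61.7 and 197 FPKM, a ratio of 3.19 (1.21 to 10.1). OsC3H60, the small subunit of a splicing factor, had 51.1 and 126 FPKM, a ratio of 2.47 (1.03 to 6.68).

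Ribosomal RNA entries were also among the higher transcripts. The small-subunit rRNA copy ENSRNA049476437 had 193 FPKM in the control and 553 FPKM at low phosphate, a ratio of 2.86 (1.93 to 4.34), and a second copy, ENSRNA049476430, had 263 and 470.5 FPKM, a ratio of 1.79 (1.24 to 2.60). A plastid entry, ORF91, which carries the symbol rRNA, had 166 and 365 FPKM, a ratio of 2.20 (1.55 to 3.16). Of the other 2 rRNA members, a large-subunit copy had 79.0 and 111 FPKM and another small-subunit copy 0.380 and 109.5 FPKM, the latter on fewer than 2 fragments, and both intervals included 1. All rRNA together took 0.197% of the reads in the control and 0.425% at low phosphate. What rRNA carried over in library preparation adds to these values was not tested.

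Of the 33 transcripts lower by at least 2-fold and by more than counting error, Os02g0602300, Os01g0559825 and Os07g0164800 rested on the most fragments. Os02g0602300 (chromosome 2, 23572965 to 23575487, plus strand), annotated by likeness to the animal zinc finger protein MYT1, had 502 FPKM in the control and 94.8 FPKM at low phosphate, a ratio of 0.189 (0.103 to 0.327), on 74.4 and 16.1 fragments. Os07g0164800 (chromosome 7, 3469431 to 3471635, plus strand), a conserved protein without an assigned function that was singled out after its values were seen, had 465 and 89.9 FPKM, a ratio of 0.193 (0.0969 to 0.358), on 58.2 and 12.9 fragments. The DJ libraries had 76.8 and 10.1 FPKM of Os02g0602300 and 4.28 and 6.97 FPKM of Os07g0164800 in control and low phosphate. Os07g0164800 was thus above 50 FPKM in the glk1glk2 libraries alone among the 6, since dgp1 had 27.7 and 7.43 FPKM.

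The only member of 1000 FPKM or more that was 2-fold apart was the other of these, Os01g0559825, a hypothetical protein (chromosome 1, 21261706 to 21262137, minus strand), with 1412 FPKM in the control and 499 FPKM at low phosphate, a ratio of 0.353 (0.210 to 0.577). The nearby Os01g0559750 (21242600 to 21243209, plus strand) had 4586 and 3142 FPKM, a ratio of 0.685 (0.570 to 0.823), so both were lower. Os02g0202500 (chromosome 2, 5740443 to 5741030, minus strand), annotated as nucleic acid binding, had 173 FPKM in the control, on 7.01 fragments, and was at 0 at low phosphate. Its control level was 2.67 times a floor of 3 fragments in the low-phosphate library, while its counting interval allowed a ratio of up to 0.606.

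Other named transcripts in the lower set belonged to no single list. Os06g0702700, with a gamma-glutamyl cyclotransferase-like BtrG domain, had 147 FPKM in the control and 23.5 FPKM at low phosphate, a ratio of 0.159 (0.0201 to 0.679). The C2H2 zinc finger gene Os06g0708600 had 161 and 32.6 FPKM, and the cyclophilin-type isomerase gene Os04g0663800 had 202 and 42.0 FPKM. OsSAG13, a short-chain alcohol dehydrogenase, had 128 and 29.1 FPKM, a ratio of 0.227 (0.0568 to 0.697). OsDi19-1, a drought-induced zinc finger protein, had 138 and 39.3 FPKM, a ratio of 0.284 (0.0928 to 0.741). Subunit 7 of succinate dehydrogenase (Os09g0382500), part of mitochondrial respiration, had 158 and 32.8 FPKM, a ratio of 0.208 (0.0254 to 0.949).

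**Figure D4:**
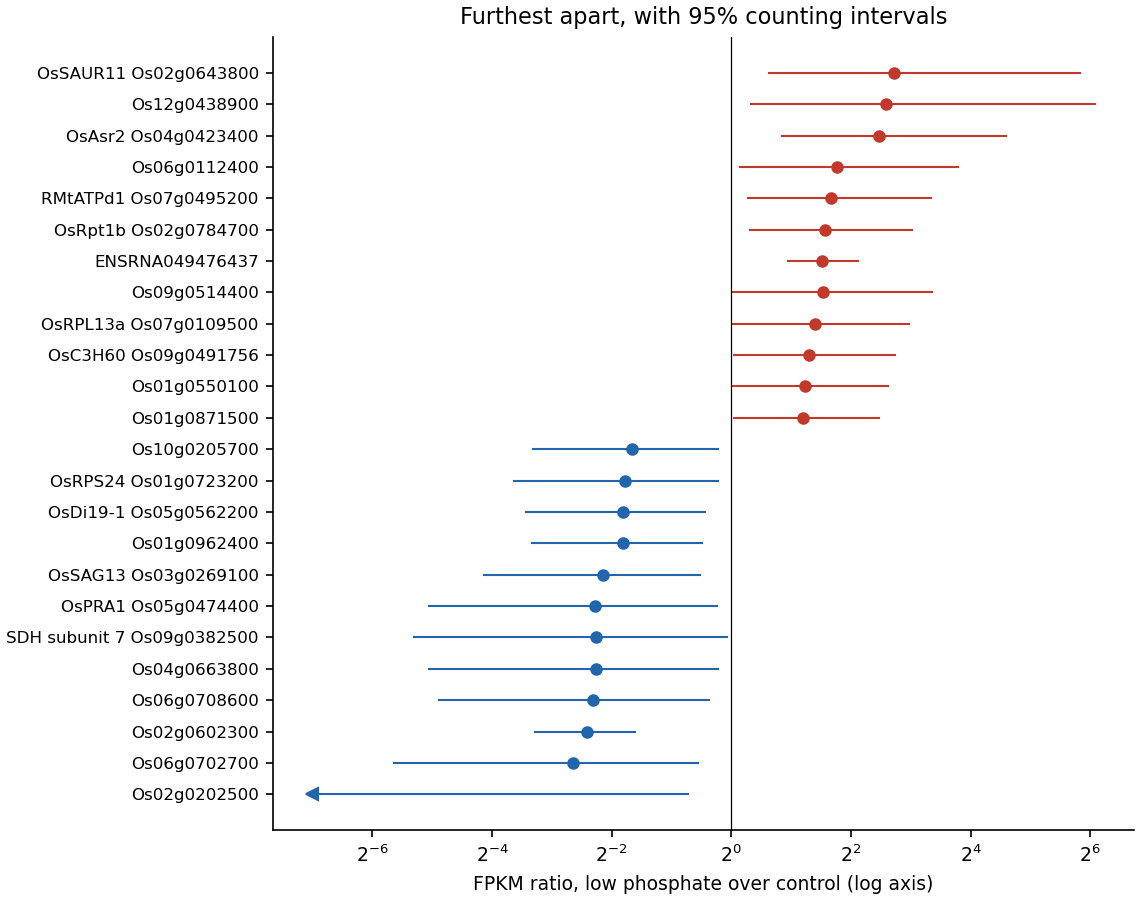
FPKM ratio of low phosphate over control in glk1glk2 on a log axis, with 95% counting intervals, for the 12 highest and 12 lowest named transcripts at least 2-fold apart whose interval excludes 1. Os02g0602300 and the rRNA copy ENSRNA049476437 have the narrowest intervals, most others come close to 1 at one end, and the arrow marks Os02g0202500, which was at 0 at low phosphate.

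The same 1392 transcripts were spread more widely between the phosphate conditions in DJ and in dgp1, pairs that share no library with glk1glk2. In DJ 306 were at least 2-fold higher, 318 lower and 480 held (34.5%), and in dgp1 161 were higher, 386 lower and 555 held (39.9%). The share at least 2-fold apart was therefore 44.8% in DJ and 39.3% in dgp1, against 12.7% in glk1glk2. Over all genes of at least 5 FPKM, the higher, lower and held shares were 23.1%, 24.3% and 34.5% in DJ and 24%, 20.7% and 37.2% in dgp1, close to those of glk1glk2. The set was chosen on glk1glk2 levels, but with each pair's own threshold of 100 FPKM 56.6% of 1621 transcripts in DJ and 54.8% of 1912 in dgp1 were at least 2-fold apart. With 1 library per group, whether the genotypes differ in their response could not be tested, and a difference between single libraries cannot be told apart from one between conditions.

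Transcripts that differed at low phosphate in both other genotypes showed no shared direction in glk1glk2. Of the 195 members at least 2-fold lower in both DJ and dgp1, 131 were held in glk1glk2, 14 were higher and 17 lower. Their median log2 ratio was −2.46 in DJ, −2.13 in dgp1 and −0.08 in glk1glk2. Of the 75 members at least 2-fold higher in both, 42 were held in glk1glk2, 6 were higher and 5 lower, with medians of 2.20, 2.69 and −0.12. Across the 1392 transcripts, which share their libraries within a pair and are not independent, the log2 ratios of glk1glk2 and DJ had Pearson's r = 0.00304 and Spearman's rho = −0.0255. For glk1glk2 and dgp1 they were 0.0219 and −0.0433, and for DJ and dgp1 0.563 and 0.432.

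**Figure D5:**
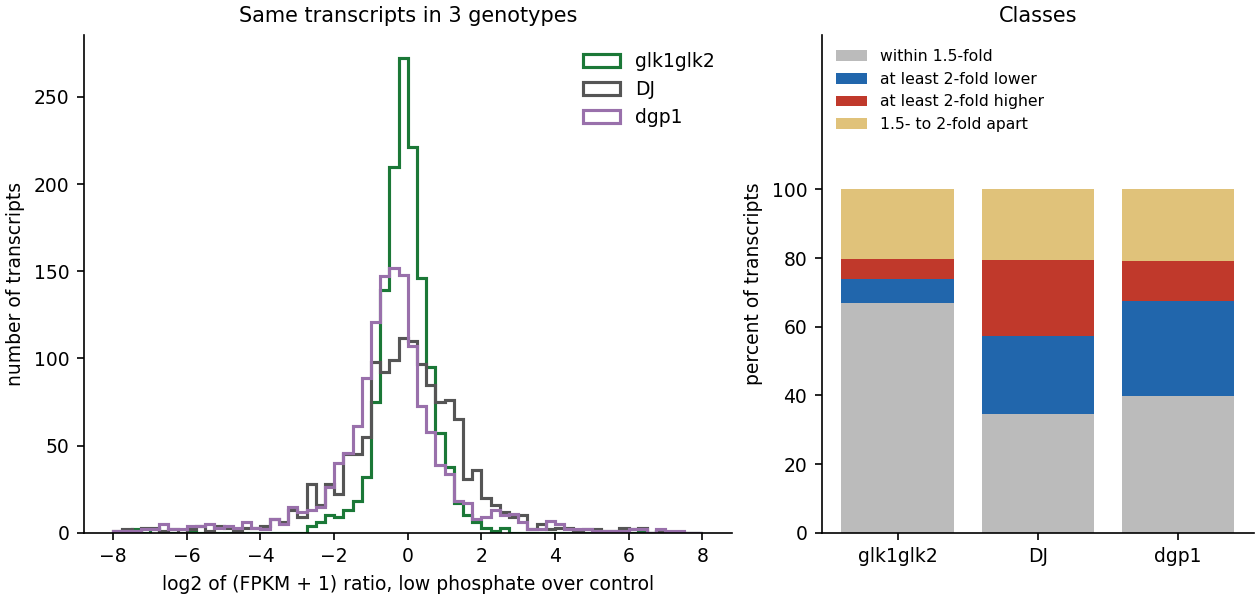
Left, number of the 1392 transcripts by log2(FPKM + 1) ratio of low phosphate over control in glk1glk2 (green), DJ (grey) and dgp1 (purple). Right, percent of them within 1.5-fold, at least 2-fold lower, at least 2-fold higher and in between; the glk1glk2 distribution is the narrowest, with 67.0% held against 34.5% in DJ and 39.9% in dgp1.

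Photosynthesis genes illustrate the contrast with DJ, while their median in dgp1 was close to that in glk1glk2. Of the 64 photosynthesis members, 42 were at least 2-fold lower at low phosphate in DJ, with a median of −1.41 log2, and 18 in dgp1, with a median of −0.20, against 1 in glk1glk2 with a median of −0.21. OsRcaII had 18414 FPKM in the DJ control and 4407 FPKM at low phosphate, against 1489.7 and 1537 FPKM in glk1glk2. PSBS1 had 2336 and 155.5 FPKM in DJ against 767 and 713 FPKM. In both genes the glk1glk2 control was already below the DJ control, and for PSBS1 both glk1glk2 levels lay between the DJ levels. Cytosolic ribosomal proteins differed in the other direction in DJ, where 103 of 138 were 2-fold higher with a median of 1.35 log2, against 3 of 138 and a median of −0.14 in glk1glk2. In dgp1 1 of 138 was higher and 78 were held, with a median of −0.42.

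Among the most abundant transcripts, OsLEA24 had 5745 FPKM in the DJ control and 549 FPKM in DJ at low phosphate, and 13639 and 528 FPKM in dgp1, where glk1glk2 had 2835 and 2838 FPKM. OsMT2c had 4399 and 202 FPKM in DJ, against 1218 and 1198 FPKM in glk1glk2. DIP3 showed the opposite arrangement, with 19.97 and 1616 FPKM in DJ and 53.5 and 1084 FPKM in dgp1, against the 6616 and 6275 FPKM of glk1glk2. In each of these 3 genes the DJ and dgp1 pairs differed in one direction and the glk1glk2 levels stayed within 1.5-fold.

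Some abundant transcripts were high in both glk1glk2 libraries and low in the other genotypes. In 44 members both glk1glk2 libraries were at least 4-fold above each of the 4 others, and 36 of these were held between the phosphate conditions. Os02g0818900, with a heavy metal-binding domain, had 865 and 762 FPKM in glk1glk2 control and low phosphate and at most 6.30 FPKM in the 4 others. ST1 and RNRS2, small subunits of ribonucleotide reductase, the enzyme that makes the building blocks of DNA, had 697 and 661 FPKM and 402.5 and 515 FPKM, against at most 109.8 and 12.6 FPKM. RAD51A2, a DNA recombination protein, had 104 and 101.1 FPKM, against at most 9.41 FPKM. OsADF3, an actin-depolymerizing factor, had 1022 and 1307 FPKM, against at most 72.2 FPKM. In the opposite direction there was 1 member, a count that the threshold on glk1glk2 levels keeps low. This was LIR1, a light-regulated chloroplast protein, with 164 and 161 FPKM in glk1glk2 against 1167 to 3220 FPKM. Genotype and library cannot be told apart here, and both glk1glk2 libraries held fewer fragments than any of the 4 others, in which the lowest estimate was 281066. The dividing-cell marker OsPCNA given above was high in the same 2 libraries, but the other dividing-cell genes did not follow it. OSH1 and OsCycB1 were at 0 in both, and at most 0.0428 FPKM in the 4 others. The 16 histone members summed to 4114 and 4399 FPKM in glk1glk2, within the 2464 to 6672 FPKM of the 4 others. What dividing cells contribute was not tested.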

How the data were processed

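Leaf RNA was sequenced from strand-specific libraries, per the labels' protocols. The aligner, the counting program, the genome build and the use of strand in counting are not given in the sources used here. The values the authors deposited were taken as FPKM, a unit inferred from the values: in each library, value times gene length was a whole multiple of 1 step (tolerance 0.01). That gave read totals of 14307611 (glk1glk2 control) and 12525772 (low phosphate). The numbers of reads per gene have their main peaks at 185 and 146, taken as 1 cDNA fragment, and lower peaks at 96 and 73, the alternative.

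Ratios are log2(FPKM + 1), low phosphate minus control. Called were differences of at least 2-fold, and within 1.5-fold counted as held. The 95% intervals are exact conditional binomial intervals on estimated fragments and cover counting error only. Gene symbols and products came from the deposited tables and 28 gene lists were built from them. Named genes were the 12 highest and 12 lowest past 2-fold with an interval excluding 1, the 10 most abundant, the 10 most abundant within 1.25-fold, the extremes and most abundant of each list, those at the threshold, and GLK1 and GLK2. Other genes named were chosen after their values were seen. Members and lists were chosen with earlier results of these data known. Scripts were tested on simulated data. Alternatives were pseudocounts of 0.1 and 5, other level filters, 2 scalings, other folds and a lower fragment peak. Python 3.11.15, numpy 2.4.6, pandas 2.3.3, scipy 1.17.1 and matplotlib 3.10.9 were used.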

Additional observations from a re-analysis of the deposited data

Results flagged for a closer look

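Of the 53 transcripts at least 2-fold apart with a counting interval excluding 1 in glk1glk2, the DJ pair differed by at least 2-fold in the opposite direction for 14 (26.4%) and in the same direction for 13 (24.5%). Over all 1392 members, 21.98% were 2-fold higher and 22.8% 2-fold lower in DJ. The 10 below are those of the 14 with a symbol or product description whose DJ interval excludes 1 as well. The description of Os04g0403900 gives no function. The difference between the genotypes was not tested, as each group has 1 library. All values are log2(FPKM + 1) ratios of low phosphate over control.

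In 5 genes glk1glk2 was lower and DJ higher. The nucleic acid-binding gene Os02g0202500 had −7.44 in glk1glk2, where it was at 0 at low phosphate, and 2.00 in DJ. OsPRA1, a prenylated Rab acceptor of membrane traffic, had −2.22 and 1.47. Os10g0205700, with a pollen allergen and extensin domain, had −1.64 and 4.09, from 34.4 to 603 FPKM in DJ. The ribosomal protein gene Os02g0785800 had −1.27 and 1.49, and the EF-hand calcium-binding gene Os01g0949300 had −1.03 and 1.52.

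In the other 5 glk1glk2 was higher and DJ lower. OsAsr2 (Os04g0423400) had 2.43 in glk1glk2 and −3.71 in DJ. The histone gene H3 (Os03g0390600) had 1.15 and −4.06. Os09g0514400, a prenyltransferase subunit, had 1.505 and −1.20. Plastid ORF91, an entry classed as ribosomal RNA, had 1.13 and −1.19, and Os04g0403900 had 1.09 and −1.38.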

How the results depend on the processing

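Pseudocounts of 0.1 and 5 and the scaling by median-of-ratios factors left the higher, lower and held counts and the median close to those given. The level filter decided the counts. With 50 FPKM in one library (3194 genes) 10.9% were 2-fold higher and 12.5% lower, and with 200 FPKM (544 genes) 2.57% and 2.57%, with a median of −0.12. With any value above 0 (17815 genes) 25.03% were higher, 24.7% lower and 34.3% held, with a median of −0.020. With a mean of 100 FPKM over the 2 libraries (1134 genes) 3.09% were higher and 3.44% lower. Genes chosen on the DJ and dgp1 libraries had a median of −0.058. Scaling both libraries by their read totals shifted ratios by 0.04 log2 and gave a median of −0.049, with 91 higher and 91 lower against 80 and 97. At 1.5-fold 14.4% were higher and 18.5% lower, at 3-fold 1.58% and 2.80%, and with the narrower band for held 44.0% counted as held. A smaller fragment size gave 56 higher and 73 lower beyond counting error. Medians of 18 of the 28 gene lists changed sign in at least 1 setting, in 40 instances. Histones and lipid transfer proteins had the most, with 5 each. Those of the light-harvesting, photosystem, Calvin cycle, photorespiration and cytosolic ribosomal lists did not change sign. The 432 values of genes named by the rule given above came from the other pseudocounts and scalings only. Among these genes, those called 2-fold apart beyond counting error stayed at least 2-fold apart in the same direction. The ratios of the others stayed inside their counting intervals, and whether these kept their side of 2-fold was not examined. Genes named outside that rule, OsFER1 and Os01g0949300 among them, were not part of this check. Those close to 2-fold can fall below it. No paired analysis was possible because each group has 1 library and the labels give no replicate numbers. Depth limits the rest: a transcript on fewer than 5 fragments was 2-fold apart in 65.5% of cases.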

Other observations

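Beyond the 2-fold calls, 36 members were under 2-fold apart with a counting interval that excluded 1, and 27 of these were lower at low phosphate and 9 higher. Of the 36, 7 (19.4%), all lower, belonged to the photosynthesis lists, which hold 64 of the 1392 members (4.60%). Abundant genes have narrower intervals, and 32.8% of the photosynthesis members rested on 50 or more fragments, against 9.12% of all members. The others included SAP4, a stress-associated zinc finger protein, with 487 FPKM in the control and 256 FPKM at low phosphate, and OsGRP3, a glycine-rich RNA-binding protein, with 2663 and 1965 FPKM. Among the higher were the alpha-tubulin gene OsTubA3, with 335 and 526 FPKM, and PARP2A, a poly(ADP-ribose) polymerase of DNA repair, with 148 and 270.3 FPKM.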
